A study of Rattus norvegicus with 46 samples.

Results

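Oleate, a long-chain fatty acid with a single double bond, was set against octanoate, a medium-chain saturated fatty acid, in heart muscle cells of the rat. The samples were taken by their labels and by the columns named for them in the deposited probe table: 8 oleate and 8 octanoate arrays, 16 of the 46 arrays of the series. The cells were cardiomyocytes isolated from wild-type adult male Wistar rats and kept overnight on laminin-coated plates without serum. They then received 0.4 mM of oleate or octanoate, bound to defatted bovine serum albumin (BSA), for 24 h. All groups, the 7 control arrays given beside them included, had 1% BSA in the medium, and control cells received BSA alone. Chain length and saturation differ together between the acids, so their parts cannot be told apart in this pair. The labels number the replicates but do not say whether these are separate animals or cultures. The p-values here are thus set against the spread among the arrays of a group, and this spread may be only technical.

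Fatty acids act on heart cells as fuel and as signals. As ligands of the PPAR nuclear receptors, which pair with RXR receptors, they raise genes that import, store and oxidize fat and that keep glucose carbon out of mitochondria. The endoplasmic reticulum (ER), where secreted and membrane proteins fold, has its own alarm: the sensors IRE1, PERK and ATF6 raise chaperones and degradation factors through XBP1 and ATF6, and through ATF4 raise amino acid transport, amino acid synthesis and tRNA charging. ATF4 is shared with other stresses that phosphorylate eIF2alpha, so its targets are not particular to the ER.

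RNA was measured on Illumina rat BeadChips with 22517 probes, of which 17.2% to 35% were detected above the negative controls on the 16 arrays, with a median raw intensity of 142 to 218. Arrays under oleate had 5785 ± 1291 detected probes (SD, n = 8) and those under octanoate 6175 ± 816 (SD, n = 8; two-sided exact permutation test, p = 0.479). The spread of intensity, as the 95th percentile over the median, was 11.9 ± 4.59 and 11.1 ± 4.36 (SD, n = 8 each, exact permutation p = 0.703). Of 18 cardiomyocyte markers 16 were detected on at least 50% of the study's 46 arrays, against 0 of 10 endothelial, 0 of 16 leukocyte, 4 of 14 fibroblast and 3 of 10 smooth muscle markers on the array. The summed level of the cardiomyocyte markers was 253663 to 336854 in units of normalized intensity under oleate, 240773 to 287065 under octanoate and 293845 to 346600 under control. Leukocyte markers summed to 852 to 1072 under oleate and 1022 to 1202 under octanoate, with defining markers such as Ptprc, C1qa and Mrc1 detected on none of the 46 arrays. Of the 3 leukocyte markers tested 1 passed, Cd68, a lysosomal protein of macrophages, with a difference of -1.04 ± 0.21 (oleate minus octanoate, log2, adjusted p = 3.19e-04), and of the 3 smooth muscle markers tested 1 passed, Smtn, smoothelin, with 1.62 ± 0.32 (adjusted p = 1.97e-04). In bulk RNA fewer cells of a type and less RNA per cell cannot be told apart, and the part of these shifts in the results was not tested.

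Among the oleate arrays 1 stood apart. Oleate replicate 4 read 13.73 for the ER chaperone Hspa5, where the other 7 oleate arrays read 12.01 to 12.63, and it was the highest oleate array for 21 and the lowest for 16 of 213 named genes by Dixon's test for a single outlying value. Arrays numbered 4 of some other groups also lay outside the rest of their group for some genes. For Mustn1, a small nuclear protein of muscle, oleate replicate 4 read 12.79, linoleate replicate 4 12.91 and palmitate replicate 4 13.17. The other arrays of these groups read at most 9.40, 11.16 and 11.18. Stearate replicate 4 read 8.55, below the 10.69 or more of the others. Control replicate 4 read 8.46, just below the 8.58 or more of the other control arrays. Octanoate replicate 4, at 12.47, lay within the 11.55 to 12.89 of the other octanoate arrays. Oleate replicate 4 thus read within the octanoate range for Mustn1, but its Pdk4 level of 10.43 was above every octanoate array, and whether the arrays numbered 4 carry the right labels was not tested. Oleate replicate 8 had the fewest detected probes, 3866. All counts below include both arrays. Without oleate replicate 4 the calls between the acids numbered 1900 in place of 1469, and without replicates 4 and 8 they numbered 1689. Genes are named as passing the test, or called, where the limma model gave a Benjamini-Hochberg adjusted p under 0.05. Differences are log2 values, oleate minus octanoate unless stated, with the standard error (SE) after ±, and 95% intervals are not adjusted for the number of genes. Where no more than 3 arrays of the lower group detected a gene, its fold is given as a lower bound.

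Between the acids 1469 of 7182 genes tested passed (20.5%), 695 of them higher under oleate (9.68%) and 774 lower (10.8%). The differences reached at least 2-fold for 203 of the higher and 278 of the lower genes, and the median over all genes tested was 0.0051. For 130 genes (1.81%) the ranges of the 8 oleate and 8 octanoate arrays did not overlap, 59 higher and 71 lower under oleate. Against control 41 genes (0.571%) passed for oleate, 37 higher (0.515%) and 4 lower (0.0557%), and 1777 (24.7%) passed for octanoate, 833 higher (11.6%) and 944 lower (13.1%). These 2 comparisons share the control arrays, so their values are given side by side only. With the replicate number as a block in a fit of these 16 arrays alone, 2565 genes passed between the acids, and oleate against control passed for 72 genes with the block. Median scaling in place of quantile normalization left 513 calls, 158 higher and 355 lower (30.8% higher, against 47.3%).

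**Figure D1:**
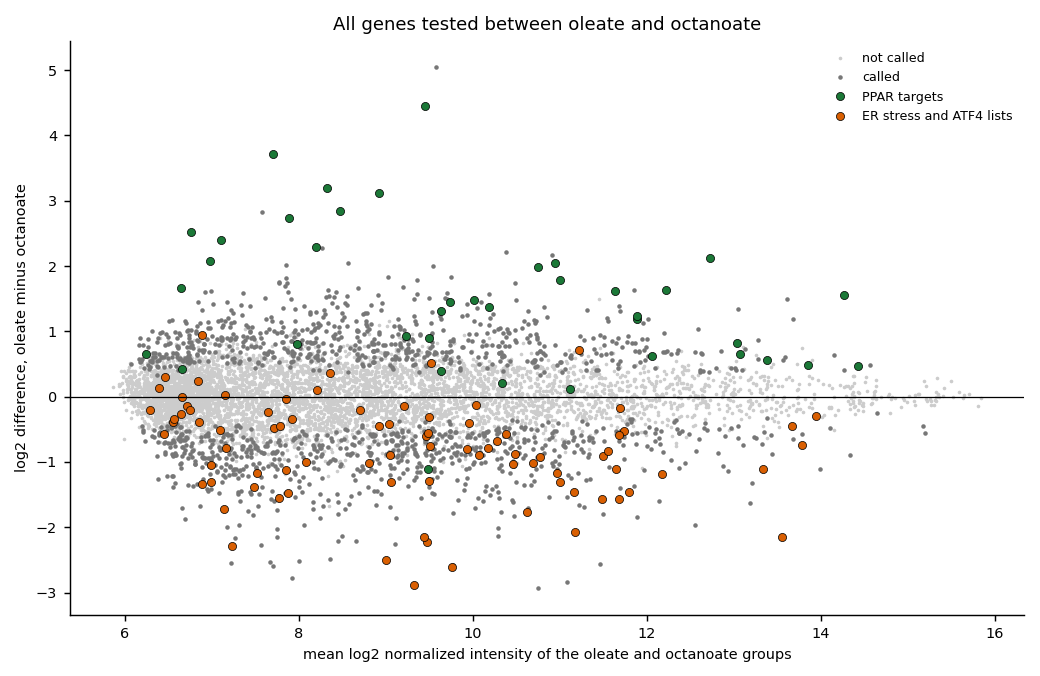
Each point is 1 of the 7182 genes tested. The horizontal axis is its mean log2 normalized intensity over the oleate and octanoate groups and the vertical axis the log2 difference, oleate minus octanoate, with genes that passed the test in dark grey. PPAR targets (green) lie almost wholly above 0, and genes of the ER and ATF4 lists (orange) mostly below.

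The plot of all genes places the PPAR targets, marked in green, on the oleate side over the whole range of intensity. Of 47 listed PPAR targets 45 were on the array and 39 were detected often enough to be tested. Of these, 32 were higher under oleate (82.1%, beside 9.68% of all genes) and 1 was lower. The median difference was 1.45, beside 0.0051 over all genes. The list and its members were chosen with earlier results of these data known. With median scaling 21 of the 39 passed as higher, beside 158 of all 7182 genes.

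Pdk4, the kinase that switches off pyruvate dehydrogenase when fat is plentiful, gave the largest difference of the list. It read 10.43 to 12.52 (median 11.97) on the oleate arrays, 6.40 to 7.82 (median 7.28) on the octanoate arrays and 6.21 to 8.16 (median 7.21) on the control arrays. The oleate range lay above both others, and the octanoate and control ranges overlapped almost fully. Pdk4 was 21.9-fold higher under oleate than under octanoate (4.45 ± 0.45, adjusted p = 3.43e-10). Its difference from control was 4.58 ± 0.46 under oleate and 0.13 ± 0.46 under octanoate.

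Angptl4, a secreted inhibitor of lipoprotein lipase, read 9.07 to 10.01 (median 9.51) under oleate, 5.63 to 6.27 (median 5.72) under octanoate and 5.94 to 6.56 (median 6.14) under control. It was detected on all 8 oleate arrays, on 1 octanoate array and on 0 control arrays, and the difference was at least 7.13-fold (3.71 ± 0.24, adjusted p = 4.40e-16). A dimmer probe of Angptl4 gave a smaller difference of the same sign, 0.94 ± 0.24. Acot1, a cytosolic thioesterase that frees fatty acids from coenzyme A, read 8.55 to 10.07 (median 9.26) under oleate and 5.66 to 7.99 (median 6.43) under octanoate, without overlap (at least 5.1-fold, 2.74 ± 0.38, adjusted p = 8.16e-07). Its near copy Acot2 was detected on 3 oleate, 1 octanoate and 0 control arrays and did not pass (0.65 ± 0.25, 95% interval 0.16 to 1.15); probes of this pair may read each other's transcripts. With the replicate block Acot2 passed (adjusted p = 0.0255).

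The mitochondrial uncoupling protein Ucp3 was detected on 7 oleate arrays and on 0 octanoate and 0 control arrays (at least 2.48-fold higher, adjusted p = 9.14e-08), although oleate replicate 4 at 6.15 read barely above the highest octanoate array, 6.13. Ucp2, its widely expressed relative, read 10.23 to 12.53 (median 12.11) under oleate and 9.05 to 10.40 (median 9.98) under octanoate (4.12-fold, adjusted p = 1.49e-06), with oleate replicate 4 alone inside the octanoate range.

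**Figure D2:**
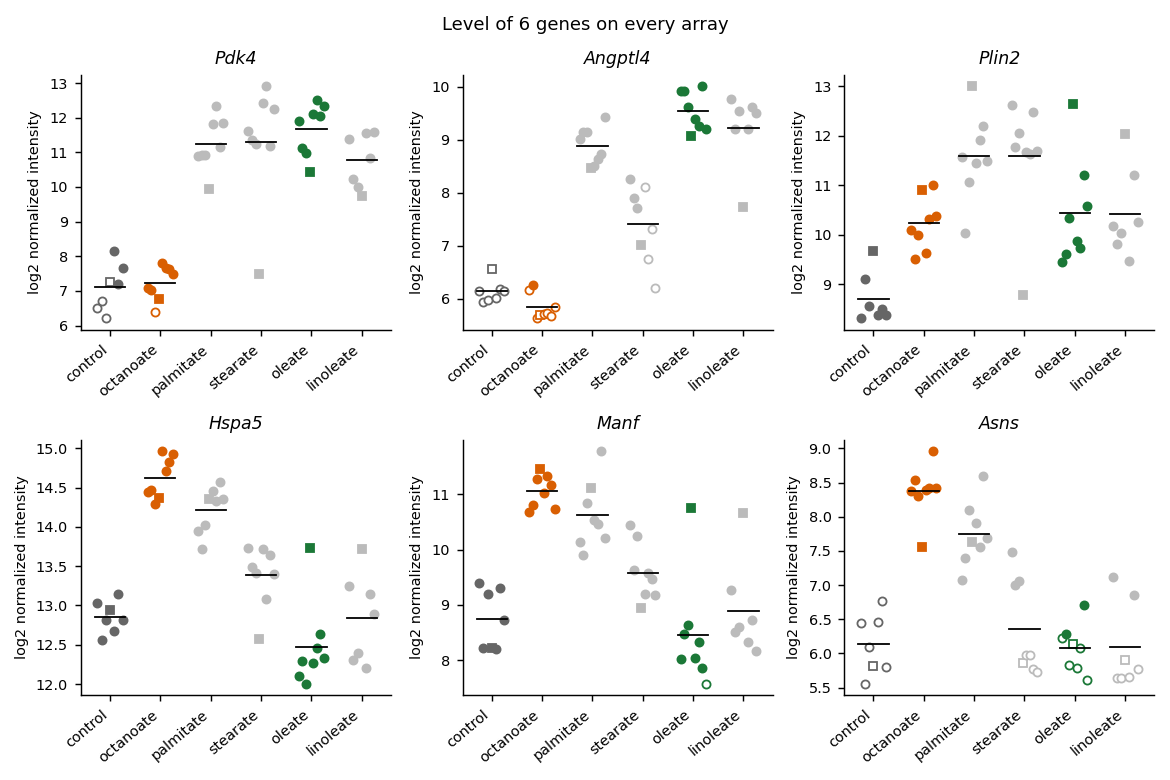
Log2 normalized intensity of 6 genes on every array (vertical axis) in the 6 groups (horizontal axis). Filled symbols were detected, open ones not, squares are the arrays numbered 4 and black lines the group means. Pdk4 and Angptl4 are high under oleate and at the control level under octanoate, Hspa5, Manf and Asns are high under octanoate, and Plin2 is above control under both acids.

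The acyl-CoA dehydrogenases that open each round of mitochondrial beta-oxidation divide the chains by length, and the transcripts of 4 of them moved the same way. Acadvl, for very long chains, Acadl, for long chains, Acadm, which takes chains of the length of octanoate, and Acads, for short chains, were higher under oleate, with differences of 0.62 ± 0.14, 0.46 ± 0.11, 0.56 ± 0.14 and 0.93 ± 0.22 (adjusted p = 0.00136, 0.00171, 0.00256 and 0.00144). These 4 were singled out after their values were seen, and under median scaling none of the 4 passed while all 4 kept the sign. Against control, octanoate lowered Acadvl, Acadm and Acads (-0.51, -0.43 and -1.10, adjusted p = 0.00879, 0.0225 and 2.83e-04), and oleate did not pass for any of the 4.

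Of 28 beta-oxidation genes tested 24 were higher under oleate (85.7%, beside 9.68% of all genes) and 1 was lower (3.57%, beside 10.8%), with a median of 0.94. Cpt1a, the liver form of the transferase that admits long chains to mitochondria, read 7.07 to 9.83 (median 8.37) under oleate and 5.50 to 6.74 (median 5.73) under octanoate, where 1 array detected it (at least 2.88-fold higher, adjusted p = 1.68e-06). Octanoate enters mitochondria largely without this step. Mlycd, which removes the CPT1 inhibitor malonyl-CoA, read 10.51 to 12.29 (median 11.93) and 9.63 to 9.88 (median 9.76), 3.95-fold apart (1.98 ± 0.21, adjusted p = 1.02e-09). It rose against control under oleate (1.07, adjusted p = 0.00276) and fell under octanoate (-0.91, adjusted p = 0.00150), so the acids lay on opposite sides of control.

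Decr1, the reductase needed for double bonds at even positions, was 3.1-fold higher under oleate (1.63 ± 0.23). Cpt2, the inner-membrane partner of CPT1, was 3.08-fold higher (1.62 ± 0.20), Crat, which moves acetyl groups onto carnitine, 2.86-fold (1.52 ± 0.19), and Etfdh, which passes electrons from beta-oxidation to ubiquinone, 2.79-fold (1.48 ± 0.20), all with an adjusted p of at most 8.16e-07 and with ranges apart. Acad9, which takes part in complex I assembly, and the flavoprotein subunit Etfb did not pass between the acids (95% intervals 0.054 to 0.88 and -0.0033 to 0.90). With the replicate block Acad9 passed (adjusted p = 0.0379), as it did without oleate replicate 4 (adjusted p = 0.0382). The exception was Slc22a5, the plasma membrane carrier of carnitine, lower under oleate (difference -1.11 ± 0.32, adjusted p = 0.0102). Octanoate had raised it against control (1.57, adjusted p = 4.43e-04), and oleate did not pass (0.46). It is the 1 gene called lower in both the PPAR and the beta-oxidation list.

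Peroxisomes shorten very long and branched chains. Here 11 of 21 peroxisomal genes tested were higher under oleate (52.4%, beside 9.68% of all genes) and 0 lower (median 0.69). Nudt7, which cleaves coenzyme A in peroxisomes, was 7.17-fold higher (2.84 ± 0.36, adjusted p = 1.24e-07), its ranges just touching at 8.45 and 8.46. Ech1, an isomerase for unsaturated chains, read 13.08 to 14.14 (median 13.85) under oleate and 10.75 to 12.49 (median 11.60) under octanoate (4.36-fold, adjusted p = 6.08e-10). Crot, which puts medium chains onto carnitine for export from peroxisomes, was 2.71-fold higher (1.44 ± 0.44, adjusted p = 0.0160), and Hsd17b4, the peroxisomal bifunctional enzyme, 2.5-fold (1.32 ± 0.19). Pex19, an import receptor of the peroxisomal membrane, differed by 1.22 ± 0.20, though its other probe gave 0.26 ± 0.14, and Pecr, an enoyl-CoA reductase, by 1.00 ± 0.20. Crot, Hsd17b4 and Pecr lost their call with median scaling. They had fallen under octanoate against control (-1.22, -0.94 and -0.98) and lay at 0.22, 0.38 and 0.017 under oleate. Among those that did not pass was Amacr, the racemase of branched chains (95% interval -0.80 to 0.34).

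Of 21 triglyceride and lipid droplet genes tested 11 were higher under oleate (52.4%, beside 9.68% of all genes) and 0 lower (median 0.98). Both lipases named by the rule were higher under oleate, as was a glycerol channel: Lipe, hormone-sensitive lipase, at least 4.48-fold (2.83 ± 0.27), Pnpla2, which takes the first fatty acid off triglyceride, 3.46-fold (1.79 ± 0.25), and Aqp7, a glycerol channel, 9.14-fold (3.19 ± 0.22), each with ranges apart and an adjusted p of at most 6.09e-07. Lipe read 8.35 to 9.45 (median 9.10) under oleate and 5.70 to 7.18 (median 5.97) under octanoate, where 1 array detected it. It is also 1 of 8 adipocyte markers, of which Adipoq, Cidec, Lep, Plin1 and Retn were detected on none of the 46 arrays. The droplet coats Plin5 and Plin4 were higher, at least 1.71-fold and 4.91-fold (adjusted p = 2.21e-09 and 0.00192). Fitm1, which promotes droplet formation, was 2.4-fold higher (adjusted p = 0.00821), a call lost with median scaling.

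Plin2, the droplet coat that usually follows the amount of stored lipid, did not differ detectably. It read 9.46 to 12.65 (median 10.11) under oleate, 9.51 to 11.00 (median 10.21) under octanoate and 8.32 to 9.67 (median 8.51) under control. The octanoate range lay within the oleate range, with a difference of 0.20 ± 0.42 (95% interval -0.64 to 1.05, adjusted p = 0.801). Against control it rose under oleate (1.73 ± 0.44, adjusted p = 0.0447) and under octanoate (1.52 ± 0.44, adjusted p = 0.00780). Oleate replicate 4 gave the highest oleate value, and without it the difference between the acids was -0.11 and the oleate call against control was lost (1.41, adjusted p = 0.173). G0s2, an inhibitor of Pnpla2, varied widely under octanoate, from 7.43 to 13.92, and did not pass (95% interval 0.25 to 2.75), nor did Dgat1, which makes triglyceride (95% interval -0.78 to -0.09). Abhd5, the coactivator of Pnpla2, lay on the other side at -0.47 ± 0.32 and did not pass either (adjusted p = 0.330). With the replicate number as a block G0s2 and Dgat1 passed (adjusted p = 0.00194 and 0.0401), and Abhd5 did so with the block in the 2 acids' arrays alone (adjusted p = 0.0429), while without oleate replicate 4 Dgat1 passed (adjusted p = 0.0335).

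Among genes of fatty acid uptake and activation 10 of 20 tested were higher under oleate and 2 lower (median 0.65). The higher share was 50%, beside 9.68% of all genes, and the lower share 10%, near the 10.8% of all genes. Cd36, the main fatty acid uptake receptor of the heart, was 3.45-fold higher (adjusted p = 8.45e-04), Acsl1, its chief acyl-CoA synthetase, 2.78-fold (adjusted p = 4.70e-06), Fabp3, the heart fatty acid binding protein, 2.35-fold (adjusted p = 0.00514), and Slc27a1, a transport protein, at least 1.4-fold (adjusted p = 6.84e-04). Cd36 and Fabp3 lost their call with median scaling. The lower ones were Acbd3, a Golgi protein that binds acyl-CoA (-1.26 ± 0.26, adjusted p = 2.60e-04), and Acsl5, a synthetase of mitochondria and the ER (-0.97 ± 0.32, adjusted p = 0.0232), and both calls were lost with median scaling. Acot9, a mitochondrial thioesterase, did not pass, with a narrow 95% interval of -0.30 to 0.19.

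**Figure D3:**
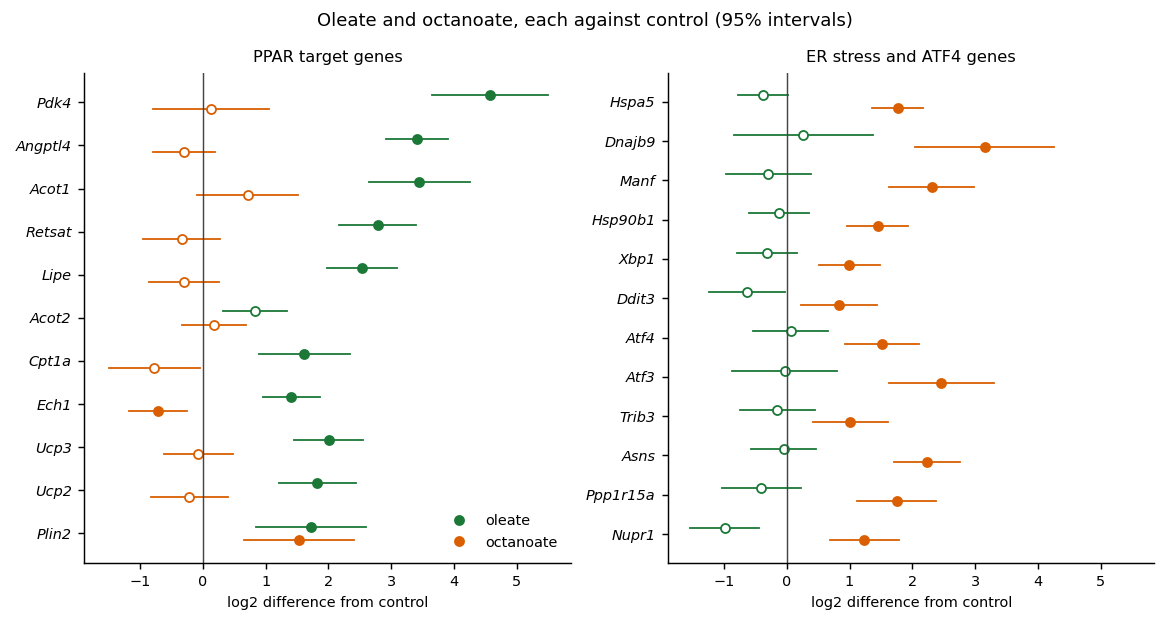
Log2 difference from control (horizontal axis) with its 95% interval for oleate (green) and octanoate (orange), for 11 PPAR target genes (left) and 12 genes of the ER and ATF4 lists (right). Filled points passed the test. Green points are filled for 10 of the 11 genes on the left and orange points for all 12 on the right, and Plin2 is above control for both. The genes were picked for display, so these counts do not stand for the lists. Over whole lists oleate raised 48.7% of PPAR targets, beside 0.515% of all genes. Octanoate raised 61.5% of ER chaperones and 52% of the ATF4 list, beside 11.6% of all genes.

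Against control, over all genes, 0.571% passed for oleate, and 11.6% were higher and 13.1% lower for octanoate. In the PPAR list oleate raised 19 of 39 genes and lowered 0, with a median of 1.07, while octanoate raised 2 and lowered 10, with a median of -0.28. In the beta-oxidation list oleate raised 8 of 28 and lowered 0 (median 0.43), and octanoate raised 1 and lowered 12 (median -0.42). In the list of ER chaperones oleate called 0 of 26 by limma, with 2 at an unadjusted p under 0.05 (median -0.04), and octanoate raised 16 and lowered 3 (median 0.88). In the ATF4 list oleate called 0 of 25 by limma, with 4 at an unadjusted p under 0.05, and octanoate raised 13 and lowered 1. For oleate a count of 0 in lists of this size is near what the share of all genes gives, so nothing is read from it. The median over all genes was -0.014 for oleate and -0.022 for octanoate. The plot of differences from control shows single genes of these lists.

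On the other side of the comparison stood the ER. Of 26 ER chaperones and folding enzymes tested, 16 were lower under oleate than under octanoate and 2 higher (median -0.84). These were 61.5% lower and 7.69% higher, beside 10.8% and 9.68% of all genes. The 2 higher ones were Cdnf (0.94, adjusted p = 0.00631), a relative of Manf, and Creld1 (0.52, adjusted p = 0.0456), a relative of Creld2. Both calls were lost with median scaling, and that of Creld1 in 15 of 32 other settings. Over the 3 ER lists, joined, 34 of 62 genes were lower, beside 774 of all 7182. With median scaling 22 of the 62 were lower, beside 355 of all 7182.

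Several of these genes carry at their start the ER stress element, the site through which ATF6 and XBP1 raise chaperones. These 6 windows are shown because their genes differed between the acids and hold a motif that a search found. They run from 250 bases before to 50 after the RefSeq start in the GRCr8 build, and capitals mark the motif. Searched on both strands were the element ERSE, CCAAT and CCACG with any 9 bases between them, its variant ERSE-II, ATTGG and CCACG with any 1 base between them, the C/EBP-ATF site through which ATF4 acts, TGATGCAAT, and a direct repeat of PPAR binding sites, AGGTCA and AGGTCA with any 1 base between them. Hspa5 lies at chr3:38452766-38453065, plus strand, Hsp90b1 at chr7:23012244-23012543, minus strand (an ERSE on each strand), Dnajc3 at chr15:102432417-102432716, plus strand, and Xbp1 at chr14:84604373-84604672, plus strand. Herpud1, with an ERSE-II, lies at chr19:10614658-10614957, minus strand, and Nupr1, with a C/EBP-ATF site on the opposite strand, at chr1:190645852-190646151, minus strand.
Hspa5: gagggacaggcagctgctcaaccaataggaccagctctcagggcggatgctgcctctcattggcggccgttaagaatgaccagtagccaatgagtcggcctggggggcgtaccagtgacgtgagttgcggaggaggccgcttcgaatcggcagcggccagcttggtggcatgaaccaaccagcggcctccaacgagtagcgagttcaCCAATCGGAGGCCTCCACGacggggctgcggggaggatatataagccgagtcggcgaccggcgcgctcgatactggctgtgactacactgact
Hsp90b1: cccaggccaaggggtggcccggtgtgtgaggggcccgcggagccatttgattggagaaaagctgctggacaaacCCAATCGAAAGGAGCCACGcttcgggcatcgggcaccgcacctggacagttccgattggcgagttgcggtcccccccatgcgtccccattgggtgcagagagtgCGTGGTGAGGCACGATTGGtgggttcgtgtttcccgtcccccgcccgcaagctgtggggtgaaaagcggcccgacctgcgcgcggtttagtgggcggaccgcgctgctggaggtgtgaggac
Dnajc3: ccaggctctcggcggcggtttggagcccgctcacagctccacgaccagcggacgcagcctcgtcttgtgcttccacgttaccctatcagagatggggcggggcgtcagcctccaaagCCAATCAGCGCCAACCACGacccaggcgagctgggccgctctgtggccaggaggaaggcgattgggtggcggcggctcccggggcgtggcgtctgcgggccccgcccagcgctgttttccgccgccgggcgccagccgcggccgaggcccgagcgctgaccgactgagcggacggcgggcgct
Xbp1: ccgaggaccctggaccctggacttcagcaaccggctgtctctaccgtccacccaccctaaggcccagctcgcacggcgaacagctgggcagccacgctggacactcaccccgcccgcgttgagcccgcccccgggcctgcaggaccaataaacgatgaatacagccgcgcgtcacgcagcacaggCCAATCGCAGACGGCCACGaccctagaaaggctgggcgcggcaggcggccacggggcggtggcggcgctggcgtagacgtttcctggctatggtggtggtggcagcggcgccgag
Herpud1: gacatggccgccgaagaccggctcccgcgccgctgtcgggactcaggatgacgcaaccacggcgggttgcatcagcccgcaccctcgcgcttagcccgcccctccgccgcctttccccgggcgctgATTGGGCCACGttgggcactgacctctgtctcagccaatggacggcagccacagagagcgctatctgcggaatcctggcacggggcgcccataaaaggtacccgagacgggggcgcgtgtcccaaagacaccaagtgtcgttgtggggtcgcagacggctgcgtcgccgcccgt
Nupr1: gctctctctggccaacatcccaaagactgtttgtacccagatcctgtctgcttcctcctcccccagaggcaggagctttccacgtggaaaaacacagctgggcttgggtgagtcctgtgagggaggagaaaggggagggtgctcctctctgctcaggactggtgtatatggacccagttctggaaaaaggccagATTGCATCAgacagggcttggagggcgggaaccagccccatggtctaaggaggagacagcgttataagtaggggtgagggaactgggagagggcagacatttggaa

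ERSE was found in 6 of 21 windows of the ER chaperone list (28.6%), 0.181% of the 5538 windows of genes tested and 0.0657% of all 33469 windows. The 6 were Hspa5, Hsp90b1, Dnajc3, Calr, Canx and Creld2, and all 6 were lower under oleate, beside 16 of 26 genes tested of that list (61.5%). A link between motif and response was not tested. Calr and Canx, the lectin chaperones of glycoproteins, differed by -1.10 ± 0.19 and -0.80 ± 0.23, and Creld2 by -1.48 ± 0.28. ERSE-II was found in Dnajb11, a co-chaperone of BiP (difference -1.39 ± 0.26), and in Herpud1, and in 0.0508% of all windows. Outside the lists searched, holders were looked up only among the named genes. There Zfand2a, described below among heat shock genes, held an ERSE. In all, ERSE was found in 10, ERSE-II in 4 and the C/EBP-ATF site in 9 of the 5538 windows of genes tested. Holders not named here, and their differences between the acids, are not described. The C/EBP-ATF site was found in 0.188% of all windows, in 1 of 25 windows of the ATF4 list (4%), Nupr1, in 2 of 14 of the tRNA synthetase list (14.3%), Aars1 and Iars1, and in 1 of 24 of the beta-oxidation list (4.17%), Echs1, an enoyl-CoA hydratase. Iars1 was lower under oleate like Nupr1 and Aars1 (-0.47 ± 0.15, adjusted p = 0.0192), and Echs1 was higher (0.45 ± 0.16, adjusted p = 0.0423), a call lost in 15 of 32 other settings. Among the named genes outside these lists Cox6a2 also held the C/EBP-ATF site, and it did not pass between the acids. The direct repeat was found in 0 of 33 windows of the PPAR list and 0.0538% of all windows, which says only that these letters are not in this stretch. A match is a description of the sequence and not a measured binding site.

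Hspa5 encodes BiP, the main ER chaperone, and read 12.01 to 13.73 (median 12.31) under oleate, 14.29 to 14.96 (median 14.59) under octanoate and 12.56 to 13.14 (median 12.82) under control. The lowest octanoate array lay above the highest oleate array even with oleate replicate 4 included. Hspa5 was 4.43-fold lower under oleate (-2.15 ± 0.19, adjusted p = 2.63e-11) and -2.33 without that replicate. Against control octanoate raised it by 1.77 ± 0.20 and oleate lay at -0.38 ± 0.20, which did not pass (adjusted p = 1.0).

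Manf, a secreted factor that binds BiP, read 7.58 to 10.75 (median 8.18) under oleate and 10.68 to 11.45 (median 11.10) under octanoate, where oleate replicate 4 alone reached the octanoate range (6.07-fold lower, -2.60 ± 0.32, adjusted p = 7.04e-08). Dnajb9, an ER co-chaperone of BiP, read 5.85 to 10.84 (median 7.94) and 9.79 to 11.76 (median 10.70) (7.41-fold lower, -2.89 ± 0.53, adjusted p = 8.29e-05). Without replicate 4 the differences were -2.93 and -3.31. Sdf2l1, found in complexes with BiP, was detected on 2 oleate and 8 octanoate arrays (at least 1.97-fold lower), with ranges apart. The co-chaperone Dnajc3 and Hsp90b1, the Hsp90 of the ER, were 2.98-fold and 2.97-fold lower (-1.57 ± 0.21 and -1.57 ± 0.23). Erp29, a folding factor, did not pass (95% interval -0.57 to 0.30).

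In ER-associated degradation, which returns misfolded proteins to the cytosol, 9 of 17 genes tested were lower under oleate and 0 higher (median -0.45). The share lower was 52.9%, beside 10.8% of all genes. Selenos, which recruits the extraction machinery, was 2.25-fold lower, and Syvn1, the ubiquitin ligase of this route, 2.05-fold, reading 9.58 to 10.27 (median 9.97) under oleate and 10.31 to 11.65 (median 11.10) under octanoate, without overlap. Faf2 and Ubxn4, adaptors of the extraction ATPase, were 1.86-fold and 1.85-fold lower, and Sel1l, the partner of Syvn1, and Ufd1, a cofactor of the ATPase, 1.73-fold and 1.52-fold. Ubxn4, Sel1l and Ufd1 lost their call with median scaling. Herpud1, which joins the ligase complex, was 1.48-fold lower at an adjusted p of 0.0492 and lost its call in 17 of 32 other settings.

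Of 19 ER stress sensors and factors tested 9 were lower under oleate (47.4%, beside 10.8% of all genes) and 0 higher (median -0.75). Ppp1r15a, which reverses the phosphorylation of eIF2alpha, read 7.91 to 10.03 (median 8.17) under oleate and 9.39 to 11.45 (median 10.56) under octanoate (4.45-fold lower, adjusted p = 8.16e-07). Ddit3, the death-linked factor CHOP, read 9.92 to 11.37 (median 10.25) and 11.21 to 12.86 (median 11.87) (2.76-fold lower, adjusted p = 2.00e-04), and control read 10.60 to 11.62 (median 11.08). Atf4 itself was 2.74-fold lower (adjusted p = 1.70e-04), Xbp1 2.48-fold (adjusted p = 4.79e-05), Ostc, a subunit of the glycan transferase, 2.27-fold, and Trib3, a pseudokinase induced by ATF4 and CHOP, 2.24-fold (adjusted p = 0.00262). The arrays read total Xbp1 transcript and not its splicing by IRE1. Atf6b, a relative of ATF6, did not pass (95% interval -0.50 to 0.25).

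The ATF4 and amino acid list had the lowest median of the 27 pathway lists, -1.16. Of its 25 genes tested 17 were lower under oleate (68%, beside 10.8% of all genes). The 1 higher (4%, beside 9.68%) was the aspartate aminotransferase Got1 (0.71, adjusted p = 0.00809, lost with median scaling). Asns, asparagine synthetase, read 5.61 to 6.71 (median 6.11) under oleate, 7.56 to 8.96 (median 8.40) under octanoate and 5.56 to 6.77 (median 6.10) under control, and was detected on 2, 8 and 0 arrays. The octanoate range lay wholly above the others (at least 2.55-fold lower under oleate, adjusted p = 2.82e-09). Atf3, a stress-induced repressor, read 6.75 to 8.56 (median 7.87) and 9.07 to 11.60 (median 10.41) (5.64-fold lower, adjusted p = 1.05e-05). Slc3a2, the heavy chain of amino acid exchangers, was 4.19-fold lower, Gdf15, a stress hormone, 3.42-fold, and Cebpg, a partner of ATF4, 2.92-fold, all with ranges apart and an adjusted p of at most 1.08e-04.

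Nupr1, a small stress-induced chromatin protein, read 7.51 to 9.05 (median 8.34) under oleate, 9.27 to 11.52 (median 10.71) under octanoate and 8.87 to 9.94 (median 9.33) under control. The ranges of the acids did not overlap (4.66-fold, -2.22 ± 0.26, adjusted p = 2.16e-08), and the oleate median was the lowest of the 3 groups, although oleate against control did not pass (-0.99 ± 0.27, adjusted p = 0.106). Slc38a2, an amino acid importer, and Cebpb, a C/EBP factor, did not pass between the acids (95% intervals -0.73 to 0.14 and -0.55 to 0.20). With the block in the 2 acids' arrays alone Slc38a2 passed (adjusted p = 0.0283).

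Aminoacyl-tRNA synthetases load amino acids onto tRNA. Here 11 of 17 cytosolic ones tested were lower under oleate (64.7%, beside 10.8% of all genes) and 0 higher (median -0.85). Wars1 was 3.13-fold lower (-1.65 ± 0.24, adjusted p = 1.49e-06), Yars1 2.38-fold and Tars1 2.16-fold. Cars1, Sars1 and Aars1 were 2.18-fold, 2.16-fold and 1.92-fold lower, and Aars1 lost its call with median scaling. Kars1 was not detectably different, with a 95% interval of -0.15 to 0.42. Against control octanoate raised 10 of the 17 (58.8%, beside 11.6% of all genes) and oleate called 0 by limma, with 0 at an unadjusted p under 0.05.

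Other stress lists were read against the 10.8% of all genes called lower. Of 23 immediate early genes tested 15 were lower under oleate (65.2%) and 1 higher (4.35%, beside 9.68% of all genes; median -0.78). Fosl1, an AP-1 subunit, was 4.76-fold lower (-2.25 ± 0.36), the Krüppel-like factors Klf5, Klf6 and Klf4 3.46-fold, 3.06-fold and 2.82-fold, and Jun, another AP-1 subunit, 2.72-fold. The gene called higher was Klf10 (0.64, adjusted p = 0.0326), a factor induced by TGF-beta, whose call was lost in 12 of 32 other settings. Of the immediate early genes that did not pass, Junb had a 95% interval of -0.78 to 0.31.

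In the p53 and apoptosis list 9 of 19 were lower under oleate (47.4%, beside 10.8% of all genes) and 0 higher (median -0.63). Plk2, a p53-induced kinase, was detected on all 8 octanoate arrays, from 7.28 to 10.12, and on 0 oleate and 0 control arrays (at least 2.87-fold lower under oleate, adjusted p = 3.74e-08). Tnfrsf12a, a receptor of the TNF family, and Gadd45g, a growth arrest protein, were 3.58-fold and 3.54-fold lower. Btg2, an antiproliferative factor, and Mdm2, the ligase that restrains p53, were 2.67-fold and 2.59-fold lower with ranges apart, while Gadd45a, 2.59-fold lower, lost its call with median scaling. Mcl1, a survival protein, did not pass (95% interval -1.15 to 0.35). Mcl1 passed with the block in the 2 acids' arrays alone (adjusted p = 0.0281).

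Of 19 NF-kB targets and chemokines 6 were lower (31.6%, beside 10.8% of all genes) and 0 higher (median -0.42). Ccl20, a chemokine, read 6.92 to 9.85 (median 8.58) under oleate and 9.99 to 12.67 (median 10.92) under octanoate, without overlap (5.96-fold, adjusted p = 5.55e-05). Birc3 and Birc2, ubiquitin ligases of the same signalling route, were 4.63-fold and 4.03-fold lower, Vcam1, an adhesion protein, 3.02-fold, and Nfkbia, the inhibitor that NF-kB itself induces, 2.02-fold. Nfkb2, a subunit of NF-kB, was 1.64-fold lower and lost its call with median scaling. Cxcl1, another chemokine, did not pass (95% interval -1.17 to 0.62).

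Among heat shock genes 8 of 18 were lower (44.4%, beside 10.8% of all genes) and 1 higher (5.56%, beside 9.68%; median -0.59). Zfand2a, a protein of the stressed proteasome, was 4.4-fold lower (adjusted p = 6.76e-07) and Dnajb5, a cytosolic co-chaperone, 3.62-fold. The cytosolic chaperones Hsp90aa1, Cryab, Hspa4l and Hspb8 differed by -1.19, -0.90, -0.87 and -0.83, calls that median scaling removed. The gene called higher was Bag3, a co-chaperone of muscle (0.53, adjusted p = 0.00941), also lost with median scaling. Hspa8 and Dnaja1, abundant chaperones of the cytosol, did not pass (95% intervals -0.51 to -0.012 and -0.62 to 0.013). Hspa8 passed with the replicate block (adjusted p = 0.0368). Of 23 NRF2 targets, the antioxidant programme, 3 were lower (13%, near the 10.8% of all genes) and 0 higher (median -0.17): Akr1b8, an aldose reductase (-1.49 ± 0.49), Txnrd1, thioredoxin reductase (-1.10 ± 0.31), and Nqo1, a quinone reductase (-0.53 ± 0.19). Akr1b8 and Txnrd1 lost their call with median scaling, and Nqo1 lost its call in 12 of 32 other settings. Gstp1, a glutathione transferase, and Fth1, ferritin heavy chain, differed by 0.0026 ± 0.17 and -0.14 ± 0.074 and did not pass.

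**Figure D4:**
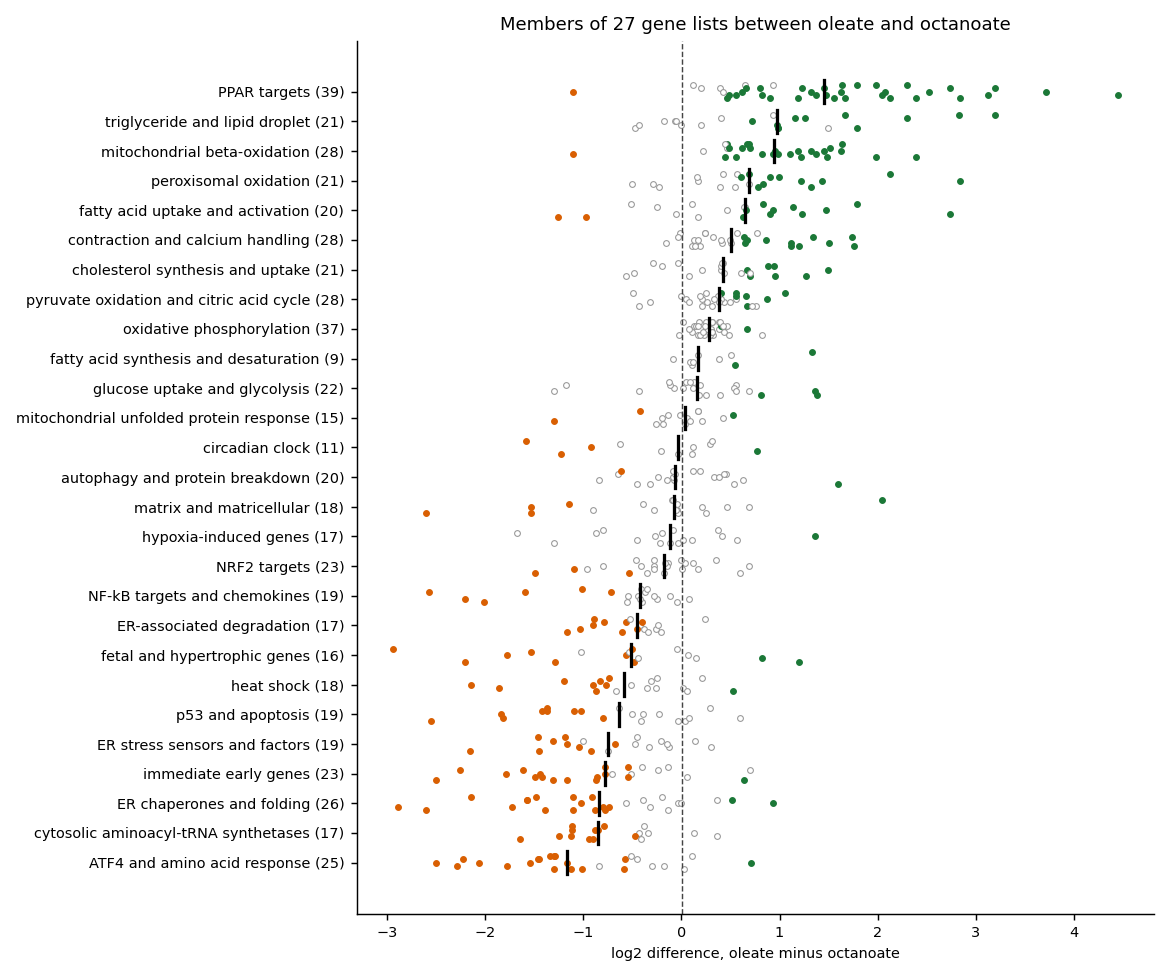
Log2 difference, oleate minus octanoate (horizontal axis), of the tested members of 27 gene lists (vertical axis, with the number tested), ordered by median. Points are genes, green where called higher under oleate, orange where called lower and open where not called; black ticks are list medians and the dashed line is the median over all genes. PPAR targets lead with a median of 1.45, and the ATF4 list ends with -1.16.

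The ordering of the lists by median runs from fat handling at one end to the ATF4, tRNA synthetase and ER chaperone lists at the other. Other stress lists lay near that end too. Immediate early (-0.78), p53 (-0.63), heat shock (-0.59) and fetal genes (-0.52) had lower medians than ER-associated degradation (-0.45). Over all genes 9.68% were higher under oleate and 10.8% lower. Of 28 genes of contraction and calcium handling 11 were higher under oleate (39.3%) and 0 lower (median 0.50). Gja1, the gap junction protein connexin 43, read 13.82 to 14.94 (median 14.39) under oleate, 11.75 to 13.55 (median 13.07) under octanoate and 13.80 to 14.50 (median 14.16) under control (2.83-fold higher, adjusted p = 3.62e-07). The oleate and control ranges overlapped and the octanoate range lay below both.

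Chrm2, the M2 muscarinic receptor, Kcnd2, a potassium channel, and Pln, phospholamban, the brake of the calcium pump, were 3.37-fold, 3.35-fold and 2.54-fold higher under oleate. Myh7, the slow myosin heavy chain, was 2.29-fold higher and Trdn, triadin of the calcium release unit, 2.17-fold. Pln and Trdn lost their call with median scaling. Against control octanoate lowered 14 of the 28 (50%, beside 13.1% of all genes), Pln (-1.62), Chrm2 (-1.96) and Myh7 (-1.41) among them. Oleate against control called 0 by limma, with 1 at an unadjusted p under 0.05. Myh6, the fast myosin heavy chain, and Tpm1, tropomyosin, did not pass between the acids (95% intervals -0.33 to 0.30 and -0.035 to 0.31).

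Of 28 genes of the citric acid cycle and of pyruvate oxidation 7 were higher under oleate and 0 lower (median 0.38). The share higher was 25%, beside 9.68% of all genes. Pdk2, the constitutive relative of Pdk4, was 2.07-fold higher (1.05 ± 0.25, adjusted p = 0.00154). It lay at -0.25 against control under oleate and had fallen under octanoate (-1.30, adjusted p = 1.87e-04). Suclg1, Ogdh, Sdhc and Idh3b, enzymes of the cycle, were 1.84-fold, 1.58-fold, 1.48-fold and 1.47-fold higher, and these 4 calls were lost with median scaling.

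Of 37 genes of oxidative phosphorylation 3 were higher, 8.11% and so near the share of all genes, and 0 lower (median 0.28), Ndufs3 and Ndufa2 of complex I and Atp5f1c of ATP synthase, by at most 1.59-fold, and median scaling removed all 3 calls. Of 22 genes of glucose uptake and glycolysis 3 were higher (13.6%, also near that share) and 0 lower (median 0.16), Pygb, brain glycogen phosphorylase (2.6-fold), Aldoc, aldolase C (2.57-fold), and Pfkm, muscle phosphofructokinase (1.76-fold), the last lost with median scaling. Gapdh differed by 0.046 ± 0.11 (95% interval -0.18 to 0.27). Of 17 hypoxia-induced genes 1 was higher, Aldoc (5.88%, below the 9.68% of all genes), and 0 lower (median -0.12). Bnip3, a mitophagy receptor, had a 95% interval of -0.86 to 0.68.

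Cholesterol synthesis leaned to oleate with 7 of 21 higher (33.3%, beside 9.68% of all genes) and 0 lower (median 0.42). Sc5d, a late desaturase of the pathway, was 2.81-fold higher (adjusted p = 3.26e-05). Fdft1, Idi1, Dhcr7, Hmgcs1 and Acat2, earlier or later steps, were higher by 1.27, 0.96, 0.94, 0.88 and 0.70, and these 5 calls were lost with median scaling. In fatty acid synthesis and desaturation 2 of 9 were higher (22.2%, beside 9.68% of all genes) and 0 lower (median 0.17). They were Lpcat1 (at least 1.93-fold, adjusted p = 8.84e-05) and Lpcat3 (1.47-fold, adjusted p = 0.0410), which remodel phospholipids. Lpcat3 lost its call in 16 of 32 other settings, and its 2 other probes differed by -0.017 ± 0.28 and -0.00057 ± 0.18. Acly, which supplies acetyl-CoA for synthesis, did not pass (95% interval -0.21 to 0.42).

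Of 16 fetal and hypertrophic genes 2 were higher under oleate (12.5%, beside 9.68% of all genes) and 8 lower (50%, beside 10.8%; median -0.52). Mustn1, described below, had the lowest difference of this list. Sgk1, a stress-responsive kinase, was 4.61-fold lower with ranges apart (adjusted p = 7.12e-06), Ccn1, a matricellular protein, 2.89-fold lower, and Abra, an actin-binding protein of striated muscle, 2.45-fold lower. The higher ones were Myh7 and Nexn, nexilin of the Z-disc (0.82, adjusted p = 0.0235, lost with median scaling). Nppb, the B-type natriuretic peptide, did not pass (95% interval -1.94 to -0.096). Nppb passed with the replicate block (adjusted p = 0.0232) and without oleate replicate 4 (adjusted p = 0.0161). Of 18 matrix genes 4 were lower (22.2%) and 1 higher (5.56%), beside 10.8% and 9.68% of all genes (median of the list -0.073). Spp1, described below, had the lowest difference of the matrix list. Timp1, an inhibitor of matrix proteases, was 2.89-fold lower with ranges apart. The higher one was Sparc, a collagen-binding protein (4.11-fold, adjusted p = 0.00142).

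The clock list had 3 lower, Nfil3, Bhlhe40 and Cry1 (-1.59, -1.22 and -0.92), and 1 higher, Bhlhe41 (0.77), of 11 tested (median -0.036). All 4 encode repressors of transcription, and the calls of Bhlhe40 and Bhlhe41 were lost with median scaling. Of 20 genes of autophagy and protein breakdown (median -0.07) 1 was higher, Pik3ip1, an inhibitor of PI3-kinase (3.03-fold), and 1 lower, the autophagy receptor Nbr1 (-0.62, lost with median scaling). Of 15 genes of the mitochondrial unfolded protein response (median 0.033) 2 were lower, the factor Atf5 (-1.30) and the protease Yme1l1 (-0.42), and 1 higher, the chaperone Trap1 (0.53). Median scaling removed the calls of Yme1l1 and Trap1, and Hspa9, the main mitochondrial chaperone, did not pass (95% interval -0.58 to 0.21). Over all genes 10.8% were lower and 9.68% higher. The shares were 27.3% and 9.09% in the clock list, 5% each way for autophagy, and 13.3% and 6.67% in the mitochondrial list. Nothing is read from the counts of the last 2 lists.

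The naming rule also drew up to 3 bright members of each list that did not pass, 76 genes reported here, with differences from -1.02 to 1.5. Those not yet named were Acadsb, Acot8, Acsl4, Acta1, Atp5f1b, Atp5po, Ccn2, Ccng1, Clpp, Col1a2, Cx3cl1, Cyp4a1, Dusp1, Eif2s1, Erp44, Hspb1, Insig1, Insig2, Klf9, Lamb1, Lamp1, Ldhb, Map1lc3b, Mdh1, Mdh2, Me1, Mt1, Nars1, Nfe2l1, Nr1d1, Pdk1, Per2, Pex13, Pgk1, Phlda3, Rnf139, Rora, Scap, Sdhb, Selenof, Selenok, Sqstm1, Tecr, Tfam, Tnip1, Tnnt2, Tomm20, Tpi1 and Ube2g2. The 95% intervals of the 76 reached down to -1.94 and up to 2.75, so differences of that size were not detectable for the most variable of them. Sqstm1, an autophagy receptor and ATF4 target, and Eif2s1, the eIF2alpha subunit itself, lay on the octanoate side without passing (95% intervals -1.57 to -0.10 and -1.44 to -0.063). Both passed without oleate replicate 4 (adjusted p = 0.0401 and 0.0268) and with the block in the 2 acids' arrays alone (adjusted p = 0.00548 and 0.00611). Of those listed here without a value, Atp5f1b, Ccng1, Dusp1, Hspb1, Klf9, Lamb1, Lamp1, Ldhb, Mdh1, Phlda3, Rora, Selenok and Tnnt2 also passed with the replicate block in all arrays.

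Some of the largest differences are given here. Retsat, Mustn1 and Spp1 among them belong to lists described above, Mustn1 to the fetal and hypertrophic list and Spp1 to the matrix list. Pik3c2g, a class II phosphoinositide 3-kinase, had the largest of all named genes and read 11.59 to 12.60 (median 12.14) under oleate, 5.85 to 8.56 (median 6.94) under octanoate and 6.07 to 8.99 (median 7.84) under control. It was 33.1-fold higher under oleate than under octanoate (5.05 ± 0.38, adjusted p = 3.98e-14), with the octanoate and control ranges overlapping. Retsat, which saturates retinol, was 8.73-fold higher (3.13 ± 0.29) and stood in the PPAR list. For Gpr22, an orphan receptor of the heart, Ptp4a3, a phosphatase, and Rxrg, an RXR partner of the PPARs, oleate did not pass against control and octanoate was lower than control. They were 4.86-fold, 4.64-fold and 4.5-fold higher under oleate, with differences from control of -0.056, 0.23 and 0.46 under oleate and -2.34, -1.98 and -1.71 under octanoate.

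In the other direction Mustn1 was 7.65-fold lower under oleate (-2.94 ± 0.52), reading 8.13 to 12.79 (median 8.74) and 11.55 to 12.89 (median 12.31), and oleate replicate 4 was the array that reached the octanoate range. Otud1, a deubiquitinase, was 7.15-fold lower (-2.84 ± 0.45) and Mllt3, a component of transcription elongation complexes, 5.93-fold (-2.57 ± 0.36). Spp1, osteopontin, Cd93, a receptor of endothelial and myeloid cells, Bmp2, a growth factor, and Atp8b1, a lipid flippase, were at least 3.04-fold, at least 3.5-fold, at least 4.47-fold and at least 3.62-fold lower. Each was detected on all 8 octanoate arrays and on at most 3 oleate arrays. Cd93 read 11.15 and Spp1 9.76 on oleate replicate 4, against at most 7.98 and 6.14 on the other 7 oleate arrays.

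**Figure D5:**
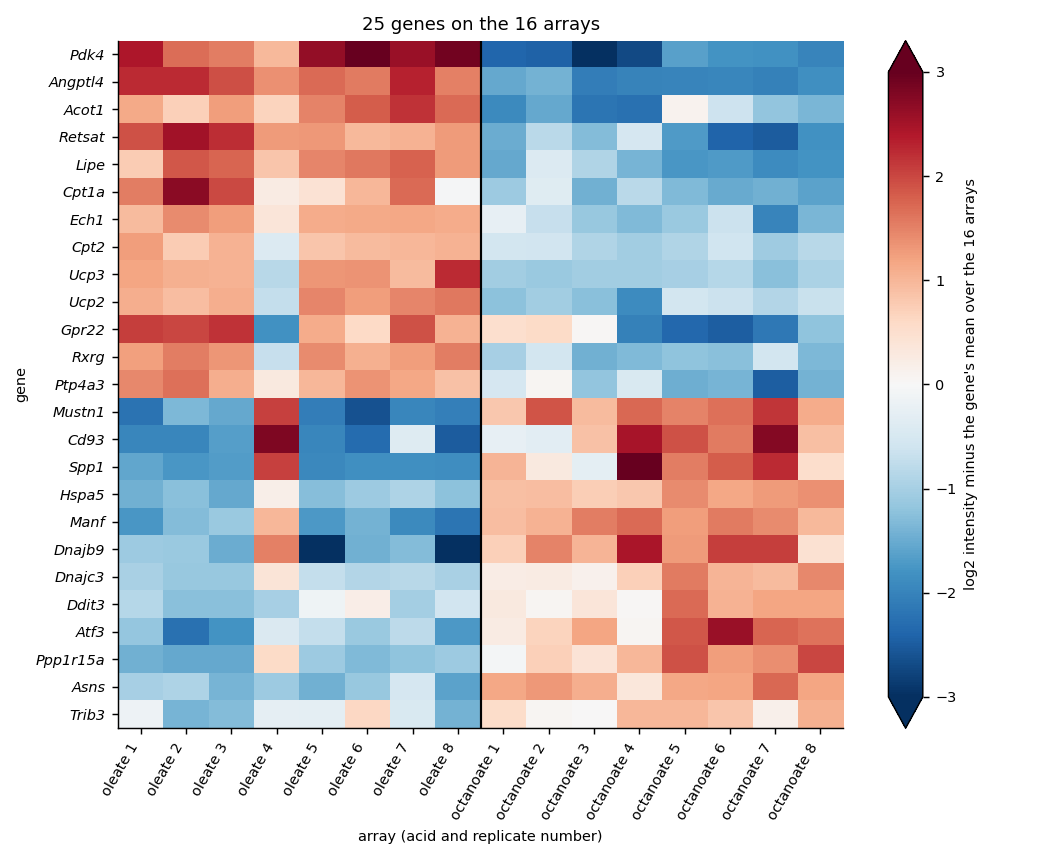
Log2 intensity of 25 genes (vertical axis) on the 8 oleate and 8 octanoate arrays (horizontal axis), each gene centred on its mean over the 16 arrays and coloured from 3 below (blue) to 3 above (red). The upper genes are red under oleate and the lower ones under octanoate. The column of oleate replicate 4 is red for Mustn1, Cd93, Spp1, Manf and Dnajb9 and blue for Gpr22, Rxrg, Ucp2 and Ucp3, against the other oleate arrays. For Hspa5 it is near white, where the other oleate arrays are blue.

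The map shows 25 genes picked for display over the 16 arrays, and they do not stand for all genes. The ranges of the 2 acids were apart for 1.81% of all genes tested. Pdk4, Angptl4, Retsat and Lipe were above their mean on all 8 oleate arrays, replicate 4 included, and Asns and Atf3 below theirs. For Manf, Dnajb9 and Dnajc3 replicate 4 was on the octanoate side of the mean. For Hspa5 it was only just above the mean, at 13.73, and below the octanoate arrays, at 14.29 or more. The spread within octanoate differed between genes. Hspa5 had an SD of 0.26 over the 8 octanoate arrays, against 1.15 for Cd93, 1.15 for Spp1 and 0.95 for Ccl20.

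The other 3 fatty acids of the series place these ends on a wider scale, as means over 7 or 8 arrays. Pdk4 had means of 11.68 under oleate, 11.31 under stearate, 11.23 under palmitate, 10.77 under linoleate, 7.23 under octanoate and 7.10 under control, so octanoate had the mean nearest to control of the 5 acids. Stearate replicate 4 read 7.48 against 11.18 to 12.91 on the other 7 stearate arrays. Oleate replicate 4, at 10.43, was the lowest oleate array. Without the arrays numbered 4 the oleate and stearate means were 11.86 and 11.85, nearly level. Those of palmitate and linoleate were then 11.42 and 10.94. Hspa5 had means of 14.63 under octanoate, 14.22 under palmitate, 13.38 under stearate, 12.86 under control, 12.84 under linoleate and 12.48 under oleate. For Asns the octanoate mean of 8.37 was followed by palmitate at 7.74, and stearate, linoleate and oleate lay at 6.35, 6.09 and 6.08. Differences between these other groups were not tested here.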

How the data were processed

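Total RNA of 46 samples was hybridised to Illumina rat BeadChips. The deposited table, with no normalization, gives each probe's mean bead intensity and a detection p-value per array, per the file headers, exported from BeadStudio version 3 per the submitters' processing notes. A second deposited table holds the authors' normalized intensity, and served as an alternative.

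Intensities were background-corrected (normexp from the detection p-values, offset 16), quantile normalized and log2 transformed with limma 3.58.1 in R 4.3.3. Probes with a detection p under 0.01 on at least 7 arrays were kept, 7312 of 22517, and the brightest probe stood for each of 7182 genes. A model of 6 group means over 46 arrays with moderated statistics and an intensity trend gave two-sided p-values, adjusted by Benjamini-Hochberg over all genes. Gene symbols came from RefSeq annotation for 17287 probes and from the deposited table otherwise. Promoter windows are RefSeq's in GRCr8. The number of arrays limits the precision.

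Named genes were the 15 largest differences each way, up to 6 called and 3 uncalled members of each list, and 20 fixed genes. Of the genes so drawn 5 are not reported here. Acadvl, Acadl, Acadm, Acads, Slc22a5, Acsl5, Cdnf, Creld1, Calr, Canx, Creld2, Dnajb11, Got1, Klf10, Bag3, Nexn, Cd68, Smtn, Abhd5, Echs1 and Iars1 were named after their values were seen. Members and lists were chosen with earlier results of these data known. Oleate and octanoate arrays of the same number deviated in the same direction (correlations of 0.15 to 0.878 in all 8 pairs). Only 5 of the 8 oleate arrays correlated best with the octanoate array of their own number. The labels do not say what a shared number means, and the number was used as a block in an alternative. Other alternatives changed the background correction, scaling, detection filter, probe choice, array weights, covariates and the arrays included.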

Additional observations from a re-analysis of the deposited data

Results flagged for a closer look

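In each group of 8 arrays the highest and the lowest log2 intensity of 213 named genes, and of 2 array measures, were compared with the nearest other array by Dixon's test. Of 430 such groups 51 (11.9%) held a value past the limit, where chance puts about 1 in 20 groups past it. The groups are not independent, since many share the same array.

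Oleate replicate 4 gave 37 of the 51. It was far above the other 7 oleate arrays for 21 genes, several of the ER, stress and hypoxia lists among them: Mustn1 12.79, Otud1 11.56, Manf 10.75, Spp1 9.76, Mllt3 12.29, Cd93 11.15, Fosl1 9.78 and Hspa5 13.73. It was also the highest for Dnajc3 11.87, Ppp1r15a 10.03, Tars1 10.11, Akr1b8 9.31, Mt1 15.53, Dnajb5 8.76 and Hspb8 13.10. The rest of the high values were Klf6 11.21, Birc2 10.59, Bnip3 14.83, Pgk1 13.37, Bhlhe40 10.86 and Rora 10.65. It was far below the others for 16 genes, which included fat oxidation and contraction genes: Gpr22 6.45, Rxrg 10.21, Ech1 13.08, Mlycd 10.51, Cpt2 11.24, Crat 9.34, Pex19 7.40 and Cx3cl1 8.95, and also Lpcat1 6.57, Kcnd2 6.71, Myh7 12.70, Bhlhe41 8.68, Map1lc3b 11.89, Col1a2 6.69, Ucp2 10.23 and Ucp3 6.15. The detection call of Ucp3 failed on this array.

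The remaining values were spread over other arrays. On octanoate replicate 4 Asns 7.56, Cx3cl1 10.40, Tnip1 10.61 and Col1a2 6.83 were far below the group, and Insig1 12.11 was far above it. Both arrays numbered 4 were thus low for the chemokine Cx3cl1 and the collagen Col1a2. Oleate replicate 8 was low for Amacr 8.52 and Tecr 7.91, and oleate replicate 6 for Aldoc 7.49. Among the octanoate arrays, replicate 7 was high for Rnf139 8.49 and low for Tecr 6.95, replicate 5 was low for Ccng1 12.88, and replicate 6 was low for Fth1 15.67. Octanoate replicate 2 was high for Tpm1 15.67, and the 95th percentile of its intensity was 20.6 times the median.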

How the results depend on the processing

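Of 32 other settings, none reversed a call between oleate and octanoate. Median scaling left 513 calls (158 higher, 355 lower), 13 for oleate and 657 for octanoate against control, 21 PPAR targets higher and 22 ER genes lower. The replicate block gave 72 calls for oleate against control, and 2565 between the acids (1286 higher, 1279 lower) when only their arrays were fitted; it moved no other count by over 1.5 times. Array weights gave 2291 calls, 1159 of them higher, and 86 for oleate against control, and the signal range as a covariate gave 2785 for octanoate against control. The cause of these shifts was not tested. The other settings gave 1185 to 2106 calls between the acids. The share of calls that were higher was 30.8% with median scaling, 53.5% with 75th percentile scaling and 47.3% with quantile normalization.

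Leaving out 1 array at a time gave 1197 to 1900 calls between the acids, 563 to 920 higher and 634 to 980 lower, 32 to 42 for oleate and 1467 to 1853 for octanoate against control, 30 to 33 PPAR targets higher and 31 to 37 ER genes lower. The difference in detected probes ran from -627 to -116, and that in signal range from -0.0845, without oleate replicate 4, to 2.21. Settings without both arrays numbered 4, or without oleate replicates 4 and 8, were chosen after seeing the data and gave 1762 and 1689 calls.

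Of 156 named genes that passed, 101 passed in every setting that tested them, and median scaling lost 54. Of 78 that did not pass, 34 passed in some setting: 20 with the replicate block, 28 with the block in the 2 acids' arrays alone and 12 without oleate replicate 4, among others. The block lost no call among the 156. Of the 78, 21 changed sign in some setting, with main differences of at most 0.28. The 95% intervals reached a median of 0.46 to either side, so smaller differences were often not detectable.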
